A study of Mus musculus with 2 samples.

Results

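The ErbB family couples epidermal growth factor (EGF) and its relatives to cell growth, and 10 of its genes were described here in the stomach of mouse embryos: the 4 receptor genes Egfr, Erbb2, Erbb3 and Erbb4, and the 6 ligand genes Tgfa, Areg, Hbegf, Ereg, Btc and Nrg1. They were taken by symbol from a list of named genes and make up 10 of the 43346 Ensembl genes in each library's table. All 10 were found once in each table. The study sequenced total RNA over 200 nt from stomachs of B6NCrl embryos at embryonic day 16.5, in 2 libraries that form a single group and carry the replicate numbers 1 and 2. Each library came from a pool of male and female stomachs, with 41 embryos named for replicate 2, so a library is an average over many animals and both sexes. There was no treatment, genotype or stage to compare with, and the comparisons below are between genes, between transcripts and between the 2 libraries.

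ErbB receptors are tyrosine kinases that span the cell membrane and signal in pairs. EGFR binds TGFA, amphiregulin (Areg), HB-EGF (Hbegf), epiregulin (Ereg) and betacellulin (Btc), and the last 3 also bind ERBB4. Neuregulin 1 (Nrg1) binds ERBB3 and ERBB4, while ERBB2 has no known ligand of its own and acts as the partner of the other receptors. ERBB3 has little kinase activity of its own and recruits PI3-kinase once a partner has phosphorylated it. The ligands are made as membrane proteins that metalloproteases cut at the cell surface. In the adult stomach, Tgfa overexpression is known from transgenic mice to expand the surface mucous cells, and neuregulin is known for its part in the development of Schwann cells.

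Replicate 1 was sequenced deeper, with 43195887 expected counts over genes against 25151165 for replicate 2, with a further 3.08% and 2.05% of counts on ERCC spike-ins. Stomach markers were present, among them the forestomach keratins Krt4 and Krt13 at 2520 ± 1036 and 1952 ± 632 TPM, the mesenchymal factor Barx1 at 43.4 ± 5.54 TPM and the proton pump subunit Atp4b at 62.8 ± 18.7 TPM (SD, n = 2). Markers of neighbouring organs were also read, with the 6 pancreatic acinar markers summing to 8502 TPM in replicate 1 and 9728 TPM in replicate 2, and the 5 hepatocyte markers to 1240 and 991 TPM. The skeletal muscle list set the libraries apart, at a summed 2105 TPM in replicate 1 and 175 TPM in replicate 2. In bulk RNA of this kind, fewer cells of a type and less RNA per cell cannot be told apart.

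What makes these ligands a family is the EGF-like domain, in which 6 cysteines at set spacings form 3 disulfide bonds and which is the part that touches the receptor. The coding stretches from the first to the last of those cysteines are shown because they carry both the likeness of the ligands and the difference between Nrg1 and the rest. They were read from GENCODE M21 transcripts on GRCm38, 5′ to 3′ on the coding strand, with the cysteine codons in capitals. In codons, the search asked for a cysteine, 7 others, a cysteine, 4 or 5 others, a cysteine, 10 to 13 others, a cysteine, 1 other, a cysteine, 8 others and a cysteine. Each was found once in its coding sequence.
Tgfa: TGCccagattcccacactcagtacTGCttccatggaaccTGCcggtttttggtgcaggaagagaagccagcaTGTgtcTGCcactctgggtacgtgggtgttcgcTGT
Areg: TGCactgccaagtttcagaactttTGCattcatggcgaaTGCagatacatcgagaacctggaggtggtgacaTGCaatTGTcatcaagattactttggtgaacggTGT
Ereg: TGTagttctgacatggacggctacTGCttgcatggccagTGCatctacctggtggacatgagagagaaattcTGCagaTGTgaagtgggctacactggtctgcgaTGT
Btc: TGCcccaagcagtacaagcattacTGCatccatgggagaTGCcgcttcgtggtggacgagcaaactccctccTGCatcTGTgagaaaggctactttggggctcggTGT
Nrg1: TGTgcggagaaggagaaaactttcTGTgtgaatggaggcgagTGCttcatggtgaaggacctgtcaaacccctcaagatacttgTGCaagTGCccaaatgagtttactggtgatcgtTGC

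The 4 stretches of EGFR ligands printed each span 36 codons, and that of Nrg1 spans 40, the extra codons lying before the third and the fourth cysteine. In each of the 5 genes the stretch is split over a pair of coding exons, exons 3 and 4 of the Tgfa, Areg, Ereg and Btc transcripts and exons 2 and 3 of Nrg1-201. The genomic positions are chr6:86263200-86269960 (+) for Tgfa, chr5:91143614-91144364 (+) for Areg, chr5:91088496-91089111 (+) for Ereg, chr5:91362421-91366197 (-) for Btc and chr8:31837698-31849398 (-) for Nrg1, introns included. Areg, Ereg, Btc and the ligand gene Epgn lie together in 376 kb of chromosome 5, from 91027464 to 91402994, and no other protein-coding gene of GENCODE M21 lies in that span.

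Among the receptors, Erbb2 was highest, Erbb3 next, Egfr lower again, and Erbb4 was read at the edge of detection. Erbb2 had 42.2 TPM in replicate 1 and 52.2 TPM in replicate 2, a mean of 47.2 ± 7.07 TPM (SD, n = 2, as for every mean below), which exceeds 84.8% of the 21474 protein-coding genes. TPM values are shares of all quantified features, corrected for length, so that genes can be set side by side. Ensembl genes made up 932989 TPM in replicate 1 and 954658 TPM in replicate 2, the rest falling on spike-ins and other features. Erbb3 had 25.9 TPM in replicate 1 and 31.84 TPM in replicate 2, 28.9 ± 4.20 TPM on average, at the 76.7 percentile. Egfr had 13.48 and 14.74 TPM, 14.1 ± 0.891 TPM on average, at the 64.1 percentile. Replicate 2 was higher for all 3 genes, and the authors' intervals of the TPM did not overlap between libraries for Erbb2 (40.5 to 42.9 in replicate 1, 49.0 to 53.1 in replicate 2) or for Erbb3 (24.7 to 26.2 and 29.8 to 31.9), whereas those of Egfr did (11.7 to 16.0 and 12.5 to 17.9). The credibility level of those intervals is not given in the sources used here.

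Within a library the receptors kept their order. On the scale of log2(TPM + 0.1), Erbb3 was lower than Erbb2 by 0.70 in replicate 1 and 0.71 in replicate 2, and Egfr minus Erbb2 was -1.73 ± 0.13. An exact two-sided permutation of signs over 2 libraries cannot give a p below 0.5, so such differences are given as sizes with their spread. As shares of the summed receptor TPM, Erbb2 made up 52.1 ± 0.78%, Erbb3 31.9 ± 0.33%, Egfr 15.7 ± 1.1% and Erbb4 0.358 ± 0.022%.

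Erbb4 had 0.28 TPM in replicate 1 and 0.37 TPM in replicate 2, and Erbb4 minus Erbb3 was -6.09 ± 0.01 on that log2 scale. These values rest on 27 expected counts in replicate 1 (95% exact Poisson interval 17.8 to 39.3) and 8 in replicate 2 (3.45 to 15.8). Such intervals cover counting error only. The authors' intervals reach from 0.236 to 1.09 TPM in replicate 1 and from 0.195 to 1.74 TPM in replicate 2, past 1 TPM in both, and the authors' posterior mean TPM averaged 0.715.

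The receptor genes lie on chromosome 11 (Egfr, 16752203 to 16918158, and Erbb2, 98412470 to 98437716, both on the plus strand), on chromosome 10 (Erbb3, 128567523 to 128589652, minus strand) and on chromosome 1 (Erbb4, 68032186 to 69108059, minus strand). The catalytic loop of the kinase is the place where an aspartate takes part in phosphate transfer. It is shown because some annotated receptor transcripts hold it and others do not. In each gene it lies in exon 21, at chr11:16904338-16904361 for Egfr, chr11:98434247-98434270 for Erbb2, chr10:128572533-128572556 for Erbb3 and chr1:68080739-68080762 for Erbb4. The aspartate codon is in capitals.
Egfr: caccgtGACttggcagccaggaat
Erbb2: cacaggGACctagctgcccgaaac
Erbb3: cataggGACcttgcgctccggaat
Erbb4: catcggGATctggcagcccgcaat

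That stretch divided the transcripts of Egfr. The table held 5 of them, and by TPM a long one and a short one were near level. Egfr-201, of 10208 nt and 1210 codons, holds the loop and had 5.18 TPM in replicate 1 and 6.02 TPM in replicate 2. Egfr-202, of 2943 nt and 655 codons, lacks it and had 5.99 and 5.46 TPM. Secreted EGF receptor forms without the kinase are known to bind ligand outside the cell. As a share of the gene's TPM, Egfr-201 made up 39.6 ± 1.71% and Egfr-202 40.7 ± 5.23%, and the leading transcript was Egfr-202 in replicate 1 and Egfr-201 in replicate 2. Of the reads assigned to the gene, an alternative added after seeing the data and one that favours long transcripts, Egfr-201 held 74.6% in replicate 1 and 78.3% in replicate 2, and Egfr-202 24.3% and 20.0%. The short noncoding Egfr-205, of 446 nt, took 17.1% and 17.3% of the TPM on 24.62 and 15.2 expected counts, which were 1.14% of the reads in each library. The antisense gene Egfros, which overlaps Egfr, had 0.58 TPM in replicate 1 and 0.73 TPM in replicate 2. It had 71 and 50 expected counts, against 2155 and 1334 for Egfr. The overlap is one of gene spans, and whether the exons share sequence was not looked at. Whether counting used the strand is not given in the sources used here. Reads in any sequence shared by Egfros and Egfr could therefore have gone to either gene.

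The other receptors differed from Egfr in this. Erbb2-201, which holds the loop and has 1256 codons, made up 95.4% of the Erbb2 TPM in replicate 1 and 94.4% in replicate 2. Erbb2 overlaps Mien1 on the opposite strand, which had 126.91 TPM in replicate 1 and 127.17 TPM in replicate 2. The same limit on strand applies to any sequence shared by Erbb2 and Mien1. Erbb3 had a single transcript in the table, with the loop. For Erbb4 the 2 libraries named different transcripts: Erbb4-205, of 2196 nt and without the loop, had 16.13 expected counts in replicate 1 and 1.8 in replicate 2. The 732 codons of Erbb4-205 fill its whole model, so that model may be incomplete. Its lack of the loop therefore does not show a receptor form without the kinase. The retained-intron transcript Erbb4-203, of 744 nt, had 0 and 3.35 expected counts. The loop-holding Erbb4-201 had 0 and 2.86 expected counts, and Erbb4-202 had 10.87 and 0. With a share of 83.3% of the Erbb4 TPM on 3.35 counts, the transcript shares of Erbb4 cannot be ranked at this depth.

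**Figure D1:**
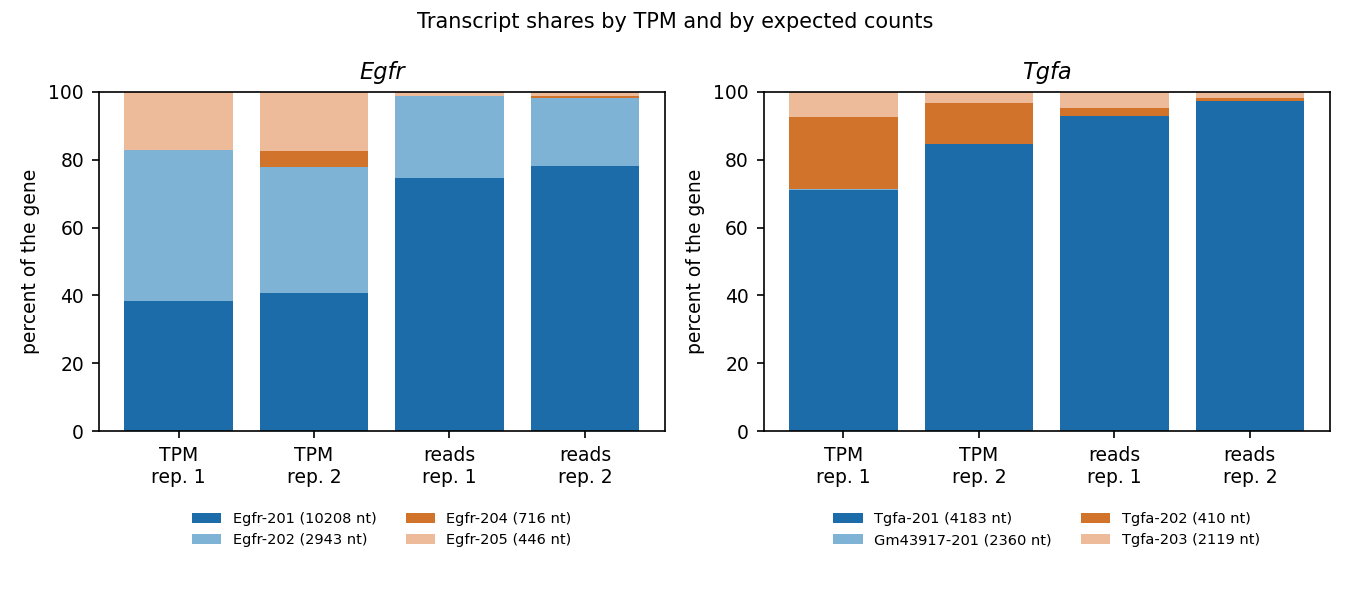
Percent of the gene carried by each transcript of Egfr (left) and Tgfa (right), by TPM and by expected counts (reads), in replicate 1 and replicate 2, with transcript lengths in nt in the legend; a transcript that GENCODE M21 gives to Gm43917 is counted under Tgfa as in the authors' table. Egfr-201 takes 38.4% and 40.8% of TPM but 74.6% and 78.3% of reads, and Tgfa-201 takes 71.2% and 84.6% of TPM but 92.9% and 97.2% of reads.

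The ligand RNAs were lower than the 3 abundant receptors on the whole, with Hbegf and Tgfa in front. Hbegf had 10.03 TPM in replicate 1 and 14.66 TPM in replicate 2, 12.3 ± 3.27 TPM on average. Tgfa had 7.78 TPM in replicate 1 and 10.13 TPM in replicate 2, 8.96 ± 1.66 TPM on average. These ligands stood at the 61.9 and 56.5 percentiles of protein-coding genes. HB-EGF is also a receptor of diphtheria toxin in humans, and its gene lies on chromosome 18 (36504927 to 36515805, minus strand); Tgfa lies on chromosome 6 (86195223 to 86275719, plus strand).

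Betacellulin and amphiregulin followed. Btc had 5.67 TPM in replicate 1 and 7.39 TPM in replicate 2, 6.53 ± 1.22 TPM on average. Areg had 3.29 TPM in replicate 1 and 5.46 TPM in replicate 2, 4.38 ± 1.53 TPM on average, from 111 and 103 expected counts. Their neighbour Ereg had 0.35 and 0.66 TPM, 0.505 ± 0.219 TPM on average, from 43 and 46 expected counts. The cluster on chromosome 5 thus held 2 ligand genes above 1 TPM in both libraries, 1 between 0.35 and 0.66 TPM, and Epgn, which was read at 0.02 and 0.07 TPM from 1 and 2 counts.

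Nrg1, the ligand of ERBB3 and ERBB4, had 3.54 TPM in replicate 1 and 4.3 TPM in replicate 2, 3.92 ± 0.537 TPM on average. Its table entry was a single transcript of 2103 nt, the coding length of Nrg1-201 alone, whereas GENCODE M21 lists 18 Nrg1 transcripts (chromosome 8, 31814551 to 32884029, minus strand). Reads from untranslated regions and from exons of the other forms had no place in that model, so this level is that of the listed model. The 5 EGFR ligands together had 27.1 TPM in replicate 1 and 38.3 TPM in replicate 2, 3.01 ± 0.16 above Nrg1 on the scale of log2(TPM + 0.1).

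As shares of the summed TPM of the 6 ligands, Hbegf made up 33.6 ± 1.2%, Tgfa 24.6 ± 1.1%, Btc 17.9 ± 0.81%, Areg 11.8 ± 1.5%, Nrg1 10.8 ± 1.0% and Ereg 1.35 ± 0.29%. The 6 ligands summed to 30.7 TPM in replicate 1 and 42.6 TPM in replicate 2, against 81.9 and 99.2 TPM for the 4 receptors, a difference of -1.32 ± 0.14 on the log2 scale. The 5 ErbB ligands outside the list of 10 all had a TPM estimate below 1 in at least 1 library. Egf itself had 1.04 TPM in replicate 1 and 0.79 TPM in replicate 2, Nrg4 had 0.86 and 0.84 TPM, Nrg3 0.4 and 0.19 TPM, and Nrg2 0.35 and 0.24 TPM. For Nrg4 the authors' intervals lie above those estimates and above 1 TPM, from 1.04 to 2.08 in replicate 1 and from 1.21 to 2.83 in replicate 2, so its place below 1 TPM is uncertain.

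**Figure D2:**
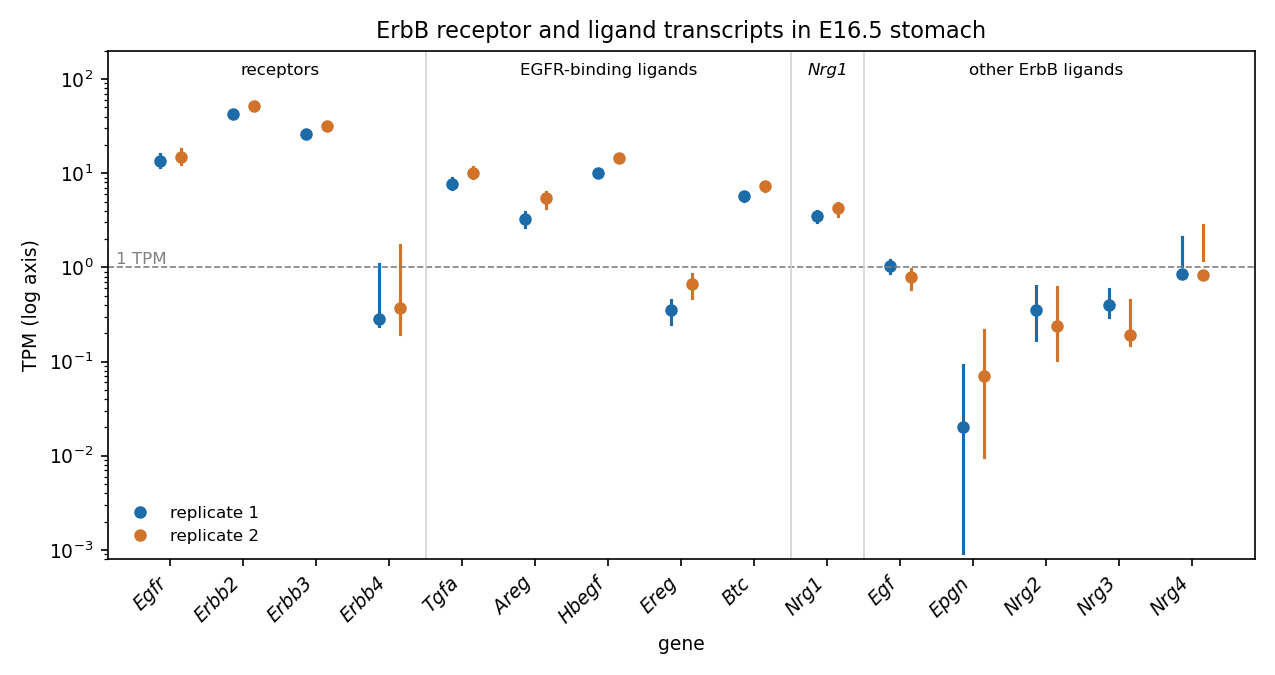
TPM (log axis) of the 4 receptors, the 5 EGFR-binding ligands, Nrg1 and the 5 other ErbB ligands in replicate 1 and replicate 2; points are the authors' TPM, bars their interval, and the dashed line is 1 TPM. Erbb2 at 42.2 and 52.2 TPM is highest, Erbb4 and Ereg are the members below 1 TPM, and each of the 10 members has its higher point in replicate 2.

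Of the 10 genes, 8 reached 1 TPM in both libraries, all but Erbb4 and Ereg, where 64.3% of the protein-coding genes did. In order of mean TPM they ran Erbb2, Erbb3, Egfr, Hbegf, Tgfa, Btc, Areg, Nrg1, Ereg and Erbb4. Neighbours were called apart where the log2 difference had 1 sign in both libraries and a mean above its SD. By that rule Egfr and Hbegf were not apart, at 0.42 in replicate 1 and 0.01 in replicate 2, nor were Areg and Nrg1, at -0.10 and 0.34. The other 7 neighbouring pairs were apart, by 0.45 ± 0.00 (Tgfa over Btc) to 2.77 ± 0.34 (Nrg1 over Ereg). The last of these, Ereg over Erbb4 at 0.47 ± 0.32, turns round with the authors' posterior mean TPM. That mean averaged 0.715 for Erbb4 and 0.505 for Ereg. In both libraries the authors' interval of Erbb4 contains that of Ereg. For Erbb4 it reached from 0.236 to 1.09 TPM in replicate 1 and from 0.195 to 1.74 TPM in replicate 2.

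Tgfa was the ligand whose table split it over several transcripts. Tgfa-201, of 4183 nt and 159 codons, holds the EGF-like stretch and made up 71.2% of the Tgfa TPM in replicate 1 and 84.6% in replicate 2. Tgfa-202, of 410 nt and 98 codons, holds no match to it and made up 21.2% and 12.3%, on 15.78 and 6.68 expected counts. By reads, Tgfa-201 held 92.9% and 97.2%. The tables held 1 transcript each for Areg, Hbegf, Ereg, Btc and Nrg1, so their forms could not be compared.

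Between the libraries, most members were lower in replicate 1 than in replicate 2. After TMM scaling of the expected counts, the median gene had a log2 ratio of replicate 1 over replicate 2 of 0.00. Of the 10 members' ratios, 9 were below 0, where 49.6% of 17763 genes were, and the members' median was -0.30. These libraries are 2 samples of 1 group, so the ratio describes this pair and has no replicate check. In TPM, all 10 members were lower in replicate 1, where 56.2% of the 17763 genes were. The authors' intervals did not overlap for 7 of the 10, the exceptions being Egfr, Erbb4 and Nrg1; over the 17763 genes, 20.8% had intervals that did not overlap and 13.5% had such intervals with the lower one in replicate 1.

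The 3 abundant receptors differed little between libraries. Egfr had 2155 expected counts in replicate 1 and 1334 in replicate 2, a log2 ratio of -0.11 with a 95% counting interval from -0.21 to -0.01. Erbb2 and Erbb3 had the same ratio of -0.26, with intervals from -0.31 to -0.20 and from -0.33 to -0.20. Of the 17763 genes, 5439 lay within 0.1 of the Egfr value, 2270 of the Erbb2 value and 2163 of the Erbb3 value. A ratio at or below that of Egfr was found for 28.5% of genes. For Erbb2 and Erbb3 that share was 13.9% and 13.6%.

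Of the 6 ligands, all but Nrg1 had a ratio below those of Egfr, Erbb2 and Erbb3. The counting intervals of Btc, Areg and Ereg, however, overlap those of Erbb2 and Erbb3. Nrg1 was at -0.24 (-0.55 to 0.07), Btc at -0.34 (-0.55 to -0.14), Hbegf at -0.51 (-0.67 to -0.35) and Tgfa at -0.53 (-0.69 to -0.38). Areg was at -0.68 (-1.10 to -0.29) and Ereg at -0.86, where the ratio of counts alone was -0.90 (-1.53 to -0.27). Of all genes, 4.11% had a ratio at or below that of Areg and 2.90% at or below that of Ereg. Areg and Ereg were the members lower in replicate 1 by over 1.5-fold, 2 of 10, where 5.15% of all genes were; both counting intervals include changes smaller than 1.5-fold. With TMM scaling, 0 members were lower by over 2-fold. Scaled by spike-in totals, which moves the median gene to -0.57, 9 members were lower by over 1.5-fold. The lowest ratios were then -1.42 for Ereg and -1.25 for Areg. That scaling shifts all genes together, and the share of all genes lower by over 1.5-fold under it was not counted. The 9 can therefore not be read as particular to the members.

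Erbb4 went the other way in counts, with a log2 ratio of 0.84 and an interval for the counts alone from -0.23 to 2.30. It was the 1 member of 10 higher in replicate 1 by over 1.5-fold, where 4.13% of all genes were. Its TPM was lower in replicate 1, where no reads went to the 744-nt transcript. The direction for Erbb4 thus depends on the unit and is not settled by 27 and 8 counts.

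**Figure D3:**
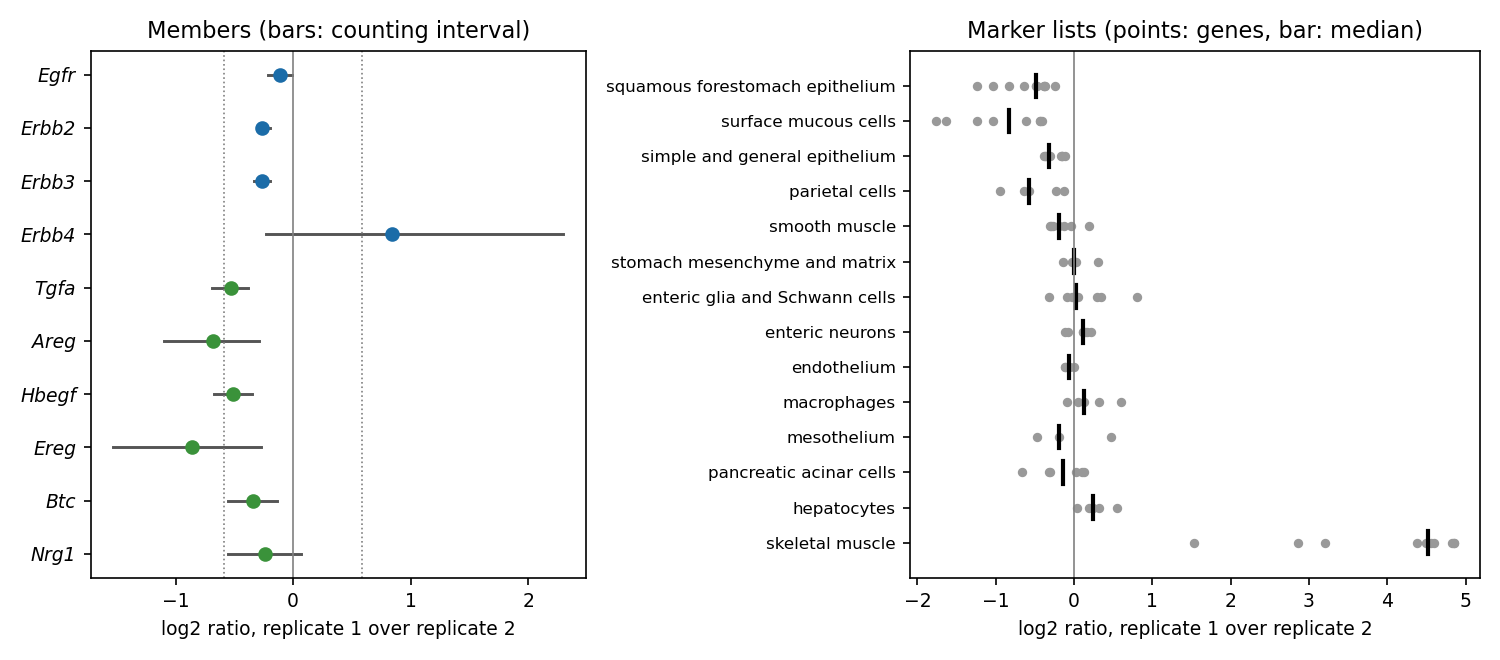
Log2 ratio of replicate 1 over replicate 2 after TMM scaling, for the 10 members (left; bars are 95% counting intervals, dotted lines mark 1.5-fold) and for the genes of the 14 marker lists (right; black bars are list medians). The members other than Erbb4 lie between -0.86 and -0.11, and the epithelial lists lie below 0. The medians of smooth muscle, mesothelium, pancreatic acinar cells and endothelium are also below 0, by less, while skeletal muscle is at a median of 4.52.

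Epithelial markers moved in the same direction. All 10 genes of the simple and general epithelium list, led by Krt8 and Krt19, were lower in replicate 1, with a median log2 ratio of -0.32 and a summed 3412 TPM in replicate 1 and 4320 TPM in replicate 2. All 11 squamous forestomach markers were lower, with a median of -0.48 (5954 and 9711 TPM), as were all 8 surface mucous markers, led by Psca and Tff1, with a median of -0.83 (1218 and 2301 TPM), and all 5 parietal markers, with a median of -0.58 (82.6 and 135 TPM). Every marker of these 4 lists reached 1 TPM in both libraries. All 10 skeletal muscle markers were higher in replicate 1, with a median of 4.52. Set relative to the median of the simple epithelium list, an alternative added after seeing the data, the members' ratios ran from -0.54 to 1.16. Of these, 5 were below and 5 above 0, and none was lower by over 1.5-fold. That step subtracts the same value, -0.32, from every gene. With the members' median at -0.30, a near-even split follows from the step and is no test. The part of these cell mixtures in the members' ratios was not tested.

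By median, the other lists moved less. The 8 glia and Schwann cell markers, cells in which Erbb3 is known to be used, summed to 58.5 TPM in replicate 1 and 58.4 TPM in replicate 2, with a median log2 ratio of 0.03, and Foxd3, Cdh19 and Gfap were under 1 TPM in at least 1 library. The medians were -0.19 for smooth muscle, 0.00 for mesenchyme and matrix, 0.12 for enteric neurons, -0.07 for endothelium, 0.13 for macrophages, -0.19 for mesothelium, -0.14 for pancreatic acinar cells and 0.24 for hepatocytes. Of the 7 smooth muscle markers, 6 were lower in replicate 1, with Acta2 at -0.27 and Actg2 at -0.31, and 1 was higher. Lower, too, were 4 of 5 endothelial markers, whereas all 5 hepatocyte and 5 of 7 enteric neuron markers were higher. Ratios of the size seen for Erbb2 and Erbb3 were thus not confined to the epithelial lists.

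The genes that act around the receptors were nearly all read. All 8 genes of ligand cleavage and trafficking reached 1 TPM in both libraries. The metalloprotease gene Adam10, whose product cuts Btc, was highest at 70.2 ± 1.20 TPM, followed by Rhbdf1, whose product helps ADAM17 mature, at 51.5 ± 7.02 TPM and by Adam17, the main sheddase of Tgfa, Areg and Hbegf, at 32.2 ± 2.84 TPM. Adam12 was lowest at 3.13 ± 0.339 TPM.

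All 15 negative regulators were detected as well. Spry2, an inhibitor of receptor signalling, had 38.2 ± 0.453 TPM, the ERK phosphatase gene Dusp6 31.4 ± 0.460 TPM, and Errfi1, whose product binds and inhibits the EGFR kinase, 24.8 ± 0.205 TPM, with Socs4 lowest at 2.48 ± 0.283 TPM. Their median log2 ratio between the libraries was 0.00, beside -0.30 for the 10 members.

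Of the 16 adaptors and signal transducers, all were detected. Shc1 and Grb2, adaptors that link phosphorylated receptors to Ras, had 82.3 ± 1.78 and 55.7 ± 10.2 TPM, and the Ras gene Nras had 60.0 ± 2.15 TPM. The Ras exchange factor gene Sos1 was lowest, at 2.63 TPM in each library. Of 9 genes raised by ERK signalling, 8 were detected, led by Myc at 74.0 ± 4.61 TPM, the cyclin D1 gene Ccnd1 at 50.4 ± 5.17 TPM and Phlda1 at 39.2 ± 4.53 TPM, while Fosl1 was at 0.335 ± 0.0636 TPM. Over these 4 lists, 47 of 48 genes were detected, where 64.3% of the protein-coding genes were. Beyond 1.5-fold lay 0 of 48, where 4.13% of all genes were higher and 5.15% lower in replicate 1. By log2 ratio 31 of 48 were lower in replicate 1, where 49.6% of all genes were. Many other pathways use the same adaptors and ERK targets, so their levels are not a readout of ErbB receptors.

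**Figure D4:**
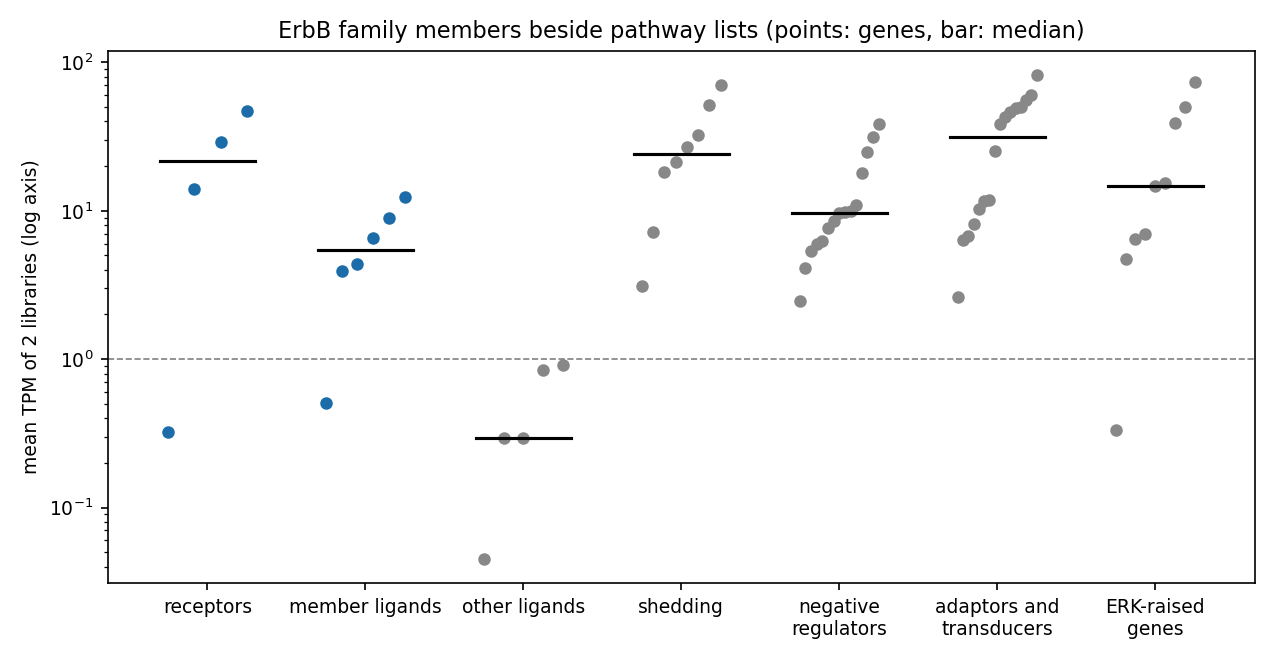
Mean TPM of the 2 libraries (log axis) for the receptors, the member ligands, the other ErbB ligands and the genes of 4 pathway lists; points are genes, black bars are medians and the dashed line is 1 TPM. The shedding, regulator and adaptor lists lie wholly above 1 TPM, whereas the 5 other ErbB ligands lie below it.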

How the data were processed

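For each library the authors deposited 1 table of genes and 1 of transcripts. The deposited text files name mm10 with annotation M4. Which aligner and quantifier were used is not given in the sources used here. Expected counts are the authors' estimated counts per feature, per the file headers. TPM, posterior mean TPM, bounds of a TPM interval, FPKM and the percent of a gene carried by each transcript were deposited by the authors. Symbols, positions and coding sequences came from GENCODE M21 (GRCm38).

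Spike-ins and features with numeric identifiers (75.0 and 27.0 counts in replicates 1 and 2) stayed out of library sizes. Expected counts were rounded, filtered with filterByExpr (1 group), and TMM-scaled with a prior count of 2, in edgeR 4.0.16 under R 4.3.3; 17763 genes passed, and the step was checked on simulated counts. With 1 group no p was computed. Detection meant 1 TPM in both libraries. Other steps used Python 3.11.15, pandas 2.3.3, scipy 1.17.1 and biopython 1.88. Alternatives included DESeq2 1.42.0 size factors, library size, spike-in totals, FPKM, posterior means, other thresholds and leaving out each library. Members and gene lists were chosen with earlier results of these data known. The text names every member and every other ErbB ligand, the 3 highest and the lowest gene of each pathway list, leading genes of marker lists, and transcripts at 10% or more of a member gene. Other genes and transcripts named were chosen after their values were seen.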

Additional observations from a re-analysis of the deposited data

How the results depend on the processing

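The count of 8 detected members was 6 at 5 TPM and 8 under the other alternatives, and all 5 receptor and ligand differences kept their sign under each alternative run, leaving out either library included. Erbb3 minus Erbb2, -0.71 on the log2 scale, was -0.69 with a pseudocount of 1 and -0.72 with posterior mean TPM. Erbb4 minus Erbb3, -6.09, was -4.49 with a pseudocount of 1, -5.96 in FPKM and -5.12 with posterior means, under which Erbb4 averaged 0.715 TPM. EGFR ligands minus Nrg1, 3.01, was 2.76 with a pseudocount of 1. The count of members higher in replicate 1 by over 1.5-fold, 1, was 0 with spike-in totals, with unscaled TPM and at 2-fold. The count lower, 2, was 9 with spike-in totals, 0 relative to the simple epithelium list and 0 at 2-fold. The 0 relative to that list follows from subtracting the same value, -0.32, from every gene, and is no test. Spike-in scaling moved the median gene by -0.57, and the share of all genes beyond 1.5-fold under it was not counted. The Erbb4 ratio reversed, from 0.84 to -0.31, with unscaled TPM; the transcripts its reads went to differ in length. No paired analysis was possible because both libraries belong to 1 group. Among the members, depth limits Erbb4 (27 and 8 counts) and Ereg (43 and 46) most.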
